A study of Gallus gallus with 12 samples.

Results

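Solute carriers are the membrane proteins that move sugars, amino acids, peptides, ions, vitamins, nucleotides and metabolites across the plasma membrane and the membranes of organelles. Here they were followed through the growth of the chick chorioallantoic membrane (CAM), the vascular sheet that lines the egg shell and encloses the allantoic fluid. All probe sets with 1 annotated symbol that begins with SLC and a digit, or with SLCO, were taken, apart from those for SLC4A1, SLC12A1, SLC40A1 and SLC11A2. A probe set was kept when all 3 arrays of at least 1 stage had a signal above 35. Of 683 such probe sets for 292 genes, 308 probe sets for 175 genes passed, out of 17726 probe sets and 9013 named genes that passed on the whole array. The 175 genes include 4 that are named after carriers and are not carriers themselves. The share that passed was 45.1% of the solute carrier probe sets and 53.1% of all probe sets with 1 symbol. The limit fell between close values. SLC30A2, SLCO2A1 and SLC25A26 each had a probe set just inside it, with 35.0, 35.4 and 35.5 as the lowest signal of their best stage, and SLC35B4 and SLC8A1 had probe sets just outside it, at 34.9 and 34.5. The 117 genes with no probe set above the limit, among them SLC2A2, SLC2A5, SLC7A11, SLC8A1, SLC20A1 and SLC26A4, are not described further.

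CAMs of chick embryos were collected on embryonic days 5, 7, 10 and 14 (E5, E7, E10 and E14), and the RNA of each was hybridised to its own Affymetrix chicken array. At E5 the tissue was the allantoic vesicle, for which the paper uses the name CAM as well. There were 3 CAMs per stage, each from a separate embryo, and 12 arrays in all. No treatment was given, so that each comparison sets a later stage against an earlier one. The RNA came from the whole membrane with its epithelia, stroma, vessels and blood, and fewer cells of a type cannot be told apart from less RNA per cell.

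Carriers are grouped by the way they are driven as well as by substrate. Facilitative carriers such as the SLC2 glucose transporters let a solute run down its gradient, whereas SLC5, SLC6, SLC15 and SLC34 members use the inward gradient of sodium or protons to concentrate solutes in the cell. In absorptive epithelia such as those of gut and kidney the coupled carriers sit in the apical membrane, and the sodium pump removes the sodium that enters. The CAM is known to take up water and ions from the allantoic fluid and calcium from the shell.

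In mean signal the arrays were alike, but their median signals differed. The E14 arrays had medians of 29.9 to 33.6, all above the 24.4 to 28.7 of the E5 arrays. The trimmed mean signal was 99.2 to 99.5 on every array, since the signals were scaled to a common mean, but the third E7 array had a median signal of 48.6, against 24.4 to 33.6 on the other 11. Its mean correlation with the other E7 arrays was 0.83. Results that rest on this array are given with and without it. Measures of RNA quality differed between the arrays. The ratio of 3' to 5' actin signal was 1.26 to 1.50 at E5, 1.51 to 1.66 at E10 and 2.21 to 3.43 at E14. It was 1.19, 1.66 and 2.76 on the E7 arrays, so that the third E7 array lay within the E14 range. The same ratio for GAPDH was 1.195 to 1.295 at E14 and 0.921 to 1.099 on the other arrays. This shift at E14 cannot be told apart from stage. The signal of HINTW, a gene of the W chromosome that females carry, was 3680 or more on 1 array at E5, 1 at E7, 3 at E10 and 2 at E14, and 110 or less on the others. Marker genes of other cell types moved with stage. The summed signal of 8 epithelial markers was 16960 to 19780 at E14, against 6712 to 10160 at E5. That of 8 leukocyte markers was 3421 to 5150 at E14, against 264 to 358 at E5. Of the markers that passed the limit, 6 of 8 epithelial and 6 of 7 leukocyte markers were higher at E14 than at E5, and 1 epithelial marker, GRHL3, was lower. Higher at E14 were also 4 of 6 endothelial and 4 of 4 mural markers, and of 7 erythroid markers 3 were higher and 2 lower. The mural marker ACTA2 and the leukocyte marker PTPRC did not pass the limit. The part of cell composition, RNA quality and sex in the results below was not tested, apart from a fit with the HINTW signal as a covariate.

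Solute carriers were called changed when the log2 difference between stages exceeded 1 in size and the adjusted p was under 0.05 in limma. A log2 difference of 1 is a change of 2-fold. Between E14 and E5, 59 of the 308 probe sets (19.2%) were higher and 22 (7.14%) were lower, where 14.8% and 13.6% of all probe sets tested were higher and lower. With each gene read by its brightest probe set, 39 of 175 genes (22.3%) rose and 5 (2.86%) fell, against 15.3% and 14% of all genes. Of 27 called genes with more than 1 probe set, all probe sets were called alike in 10 and not in 17. The latter include SLC2A10, SLC4A2, SLC9A2, SLC25A1, SLC26A11, SLC39A8 and SLC46A1, each called in 1 probe set alone. The median log2 difference was 0.37 over the solute carrier genes and 0.03 over all genes. The highest stage mean was at E14 in 82 genes (46.9%), against 34.1% of all genes. It was at E5 in 44 genes (25.1%), against 34.3% of all genes. Part of this turned on genes that passed only late: 16 of the 39 genes that rose did not pass the limit at E5. They included SLC15A1, SLC34A2, SLC6A2, SLC6A8, SLC16A7, SLC5A8, SLC5A9 and SLC5A11. The filter required such genes to be high at a later stage, so their separation from E5 is not independent of it. Among genes that passed at E5, 16.7% of the solute carriers and 10.9% of all genes were higher at E14. The split depended on scaling. With the array medians made equal, which put the median difference of all probe sets at -0.26 in place of 0.03, the counts were 43 higher and 31 lower, so that 58.1% of the calls were higher, against 72.8% as deposited. Equal medians also ended the calls of SLC7A5, SLC38A2, SLC25A1, SLC17A9 and SLC31A2 between E14 and E5.

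**Figure D1:**
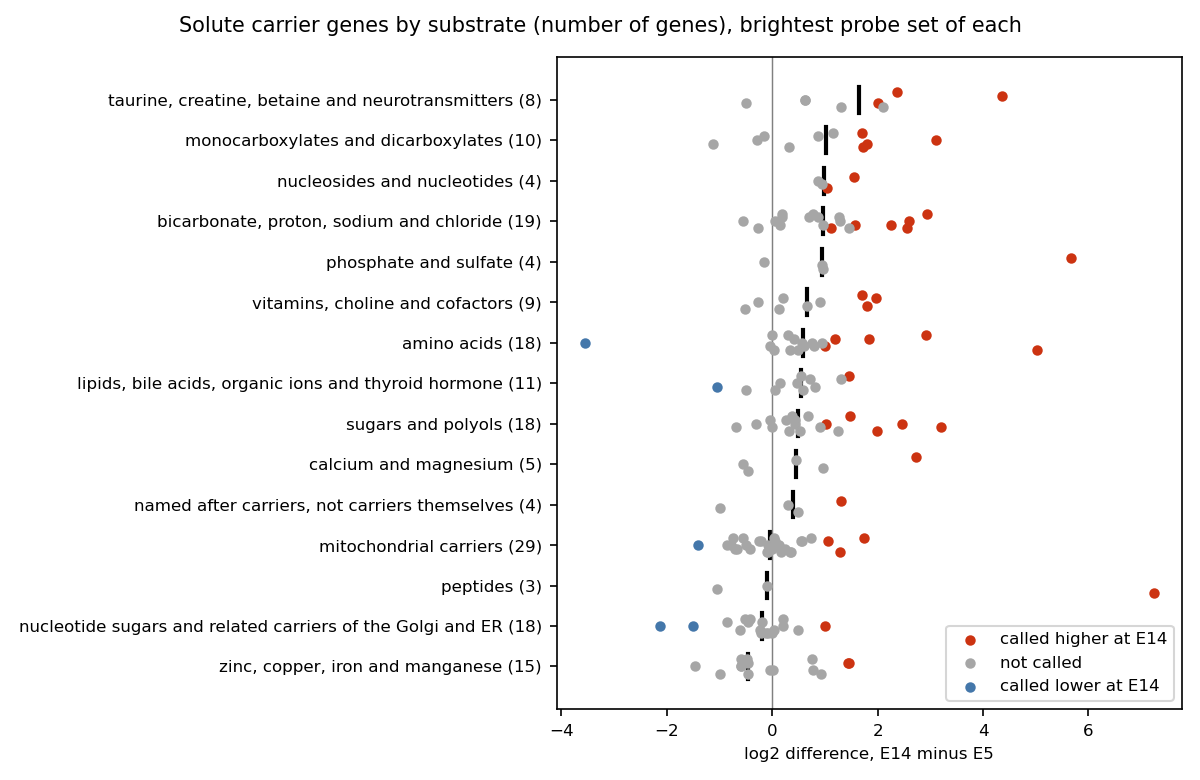
Log2 difference between E14 and E5 for each of the 175 solute carrier genes, read by the brightest probe set and grouped by substrate, with the number of genes in brackets. Red points were called higher at E14, blue points lower and grey points were not called, and the black bar is the median of the group. The 39 red points are spread over all groups. The 5 blue points lie in the groups for amino acids, lipids and organic ions, mitochondrial carriers, and nucleotide sugars. The group medians run from 1.65 for taurine, creatine, betaine and neurotransmitters to -0.45 for zinc, copper, iron and manganese.

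SLC15A1, the proton-coupled peptide transporter of the gut, had signals of 2.19, 18.7 and 4.83 at E5, 21.8, 10 and 64.5 at E7, 87.4, 11.7 and 102 at E10, and 636, 1653 and 642 at E14. It passed the limit at E14 alone, so the filter itself required high E14 signals. All E14 arrays were above all others, and all E10 and E5 arrays were far below them. The log2 difference was 7.24 (SE 0.90, adjusted p = 3.4e-05) between E14 and E5, and 4.22 (SE 0.90, adjusted p = 0.0199) between E14 and E10. With signals under 20 raised to 20, where the order of signals carries little meaning, the differences were 5.46 and 3.96. The call between E14 and E10 was lost without the second E10 array (adjusted p = 0.0893) or the second E14 array (adjusted p = 0.0657). The other peptide carriers that passed did not change together with it. SLC15A2 had 25.7, 30.6 and 16.9 at E14, against 59.8, 42.4 and 46.5 at E5, a difference of -1.05 that did not pass the test (adjusted p = 0.0785), and SLC15A4 had the narrowest range of stage means, 0.11.

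SLC34A2, a sodium-coupled phosphate carrier of epithelia, was near 1 to 3 on the E5 arrays and at 52.5, 113 and 86.4 on the E14 arrays. It did not pass the limit at E5. The groups did not overlap, and the log2 difference was 5.67 (SE 0.83, adjusted p = 0.000123), or 2.00 with the floor of 20 (adjusted p = 0.00594). A second probe set of the gene gave 5.26. The earlier step between E7 and E5 was called at 4.01 (adjusted p = 0.0268), with 9.37, 16.6 and 104 at E7. It rested on the third E7 array: without it the difference was 2.99 (adjusted p = 0.0778). It was also lost without the first or the second E5 array (adjusted p = 0.074 and 0.07), and with the floor of 20 it was 0.79 (adjusted p = 0.429). Adding 16 to each signal, equal medians or the arrays of these stages alone ended it too (adjusted p = 0.14, 0.068 and 0.228). Another phosphate carrier, SLC20A2, had 108, 195 and 156 at E14, against 58.4, 89.1 and 89 at E5, with a difference of 0.94 that was not called. SLC34A1, the other SLC34 gene that passed, was not called between E14 and E5 either. Of 4 phosphate and sulfate genes, 1 (25%) was higher and 0 lower at E14 than at E5, where 15.3% and 14% of all genes were.

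The sodium-glucose cotransporter SLC5A1 was read by 3 probe sets, and these differed. Its brightest probe set gave 32.3, 125 and 94.1 at E14, against 21, 42.7 and 31.7 at E5, with overlapping arrays and a difference of 1.25 (SE 0.53, adjusted p = 0.0757). The other 2 probe sets were called, at 5.93 (adjusted p = 0.000402) and 2.60 (adjusted p = 0.00184), or 3.22 and 2.02 with the floor of 20. The first of these gave 72.2, 281 and 319 at E14, against 2.65, 3.22 and 3.36 at E5. SLC5A11, which carries inositol with sodium, had 143, 269 and 342 at E14, against 33, 22.8 and 22 at E5, and rose by 3.21 (SE 0.60, adjusted p = 0.000841). SLC5A9, a sodium-coupled hexose carrier, had 30.7, 69.7 and 56.8 at E5, 278, 448 and 492 at E10, and 276, 193 and 382 at E14, with its highest stage mean at E10. It rose by 2.46 between E14 and E5 (SE 0.50, adjusted p = 0.00141). SLC5A8, a sodium-coupled carrier of lactate and short-chain fatty acids, was called in all 3 of its probe sets. The brightest gave 70.4, 160 and 90 at E14, against 18.7, 47.4 and 33.3 at E5, with a difference of 1.70 (SE 0.56, adjusted p = 0.0257). The dimmer ones gave 3.48 and 5.47, and the first of them was already higher at E10 than at E7 by 3.27 (adjusted p = 0.00388).

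**Figure D2:**
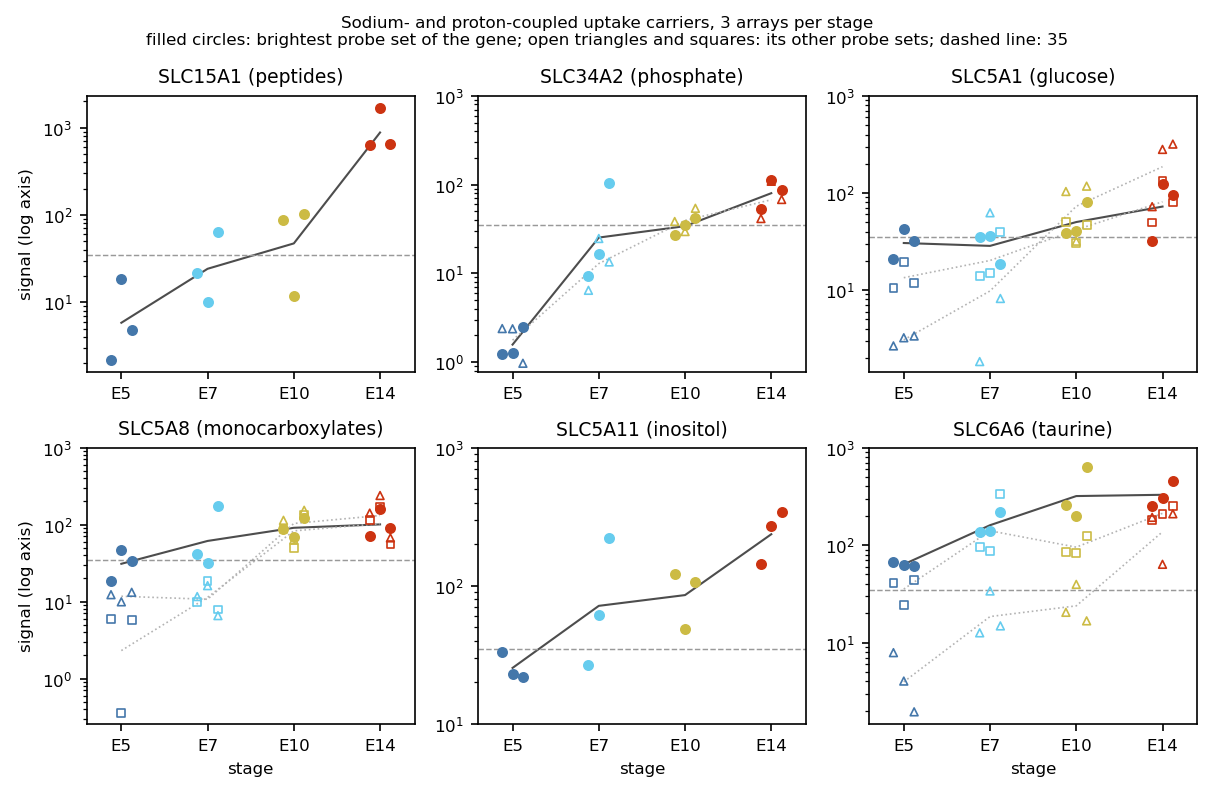
Signals of 6 sodium- or proton-coupled uptake carriers on the 3 arrays of each stage, on a log axis. Filled circles are the brightest probe set of the gene, open symbols its other probe sets, lines join geometric means, and the dashed line marks 35. SLC15A1 sits between 636 and 1653 at E14, while the brightest SLC5A1 probe set overlaps between E14 and E5.

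Of 18 sugar and polyol genes, 5 (27.8%) rose and 0 fell between E14 and E5, where 15.3% of all genes were higher and 14% lower: SLC5A11, SLC5A9, SLC17A5, SLC45A4 and SLC2A10. SLC17A5, the lysosomal exporter of sialic acid, had 2659, 2729 and 1971 at E14, against 699, 589 and 564 at E5, with no overlap, and rose by 1.98 (SE 0.22, adjusted p = 1.37e-05). SLC2A1, the widely used facilitative glucose transporter, had 220, 161 and 194 at E14, against 313, 284 and 321 at E5. All of the E14 arrays were below those of E5, but the difference of -0.69 (SE 0.21, adjusted p = 0.019) did not exceed 2-fold and was not called. SLC2A8, a glucose carrier of internal membranes, had signals between 274 and 488 on the 12 arrays.

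Of 10 monocarboxylate and dicarboxylate carriers, 4 (40%) rose and 0 fell between E14 and E5, where 15.3% and 14% of all genes did. The 4 were SLC16A1, SLC16A7, SLC16A5 and SLC5A8, and SLC16A3 was called between E14 and E10 alone. SLC16A1, which moves lactate and pyruvate with protons, had 1512, 783 and 1168 at E14, against 238, 331 and 419 at E5, and rose by 1.80 (SE 0.30, adjusted p = 0.000397). The arrays of the 2 stages did not overlap in its brightest probe set, but 2 other probe sets gave -0.11 and -0.14. SLC16A1 was called in 1 of its 4 probe sets that passed. SLC16A7, a related carrier of high affinity, had 153, 325 and 216 at E14, against 25.2, 18.8 and 34.8 at E5, a rise of 3.12 (SE 0.47, adjusted p = 0.000157). SLC16A5 rose by 1.72 between E14 and E5 and by 1.34 between E10 and E7 (adjusted p = 0.00128 and 0.0407), and the step at E10 was kept under 12 of 22 alternatives. Leaving out any E10 array, the first or second E7 array, or the third E5 or E14 array ended it (adjusted p of 0.0544 to 0.166). SLC16A3, the lactate exporter of glycolytic cells, rose by 3.28 between E14 and E10 (SE 0.74, adjusted p = 0.0263), with 37.5, 65.3 and 45.4 at E14, against 2.33, 3.42 and 15.3 at E10. All E10 signals were under 20, so the gene did not pass the limit at E10. With the floor of 20 the difference was 1.26 (adjusted p = 0.025). The call was lost without the first or second E10 array or any E14 array (adjusted p of 0.052 to 0.0988). BSG, the partner that brings SLC16A1 and SLC16A3 to the membrane, rose by 1.36 between E14 and E5 (adjusted p = 0.00012), whereas EMB, another partner of these carriers, differed by -0.24 and was not called.

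Carriers of taurine, creatine and neurotransmitters had the highest group median, 1.65, with 3 of 8 genes (37.5%) higher at E14 than at E5, where 15.3% of all genes were higher. SLC6A6, the taurine transporter, had 252, 306 and 457 at E14, against 66.8, 62.3 and 61.6 at E5, and rose by 2.37 by its brightest probe set (SE 0.37, adjusted p = 0.000205). Its other probe sets rose by 5.11 and 2.58, and 1 of them was called between E7 and E5 at 1.98 (adjusted p = 0.035), a call lost without the third E7 array (1.36, adjusted p = 0.0549). SLC6A8, which takes up creatine, was called higher already at E7, with 68, 81 and 68.1 at E7, against 22.2, 28.4 and 22 at E5. The E7 and E5 arrays did not overlap, and the difference was 1.59 (SE 0.28, adjusted p = 0.00981), or 1.63 without the third E7 array. It was lost with quantile normalization (adjusted p = 0.0733), equal medians (adjusted p = 0.183) or the arrays of these stages alone (adjusted p = 0.118). SLC6A2, the noradrenaline transporter, had 69.5, 85.3 and 183 at E14, against 1.82, 3.56 and 19 at E5, and rose by 4.37 (adjusted p = 0.00557), or by 2.36 with the floor of 20.

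Of 18 amino acid carriers, 5 (27.8%) were higher and 1 (5.56%) was lower at E14 than at E5, where 15.3% and 14% of all genes were. SLC7A5, which exchanges large neutral amino acids, rose early: it had 1416, 1425 and 1283 at E7, against 500, 670 and 585 at E5, with no overlap and a difference of 1.24 (SE 0.23, adjusted p = 0.0125). At E14 it had 1046, 974 and 1537 and was 1.00 above E5 (adjusted p = 0.0033), at the edge of the 2-fold limit. Without the first E5 array the early step had an adjusted p of 0.0715, and the later difference was 0.89, or 0.80 without the third E14 array. The early step was also lost with equal medians (0.92, adjusted p = 0.279) and with eBayes without trend (adjusted p = 0.0534). In both comparisons SLC7A5 was called in 1 of the 2 probe sets that passed. SLC36A1, which exports small amino acids from lysosomes and takes them up with protons, had 274, 214 and 234 at E10, against 8.26, 22.1 and 110 at E7. The rise of 3.14 between E10 and E7 (SE 0.82, adjusted p = 0.0441) was kept under 10 of 22 alternatives, and leaving out any E10 array, the first or second E7 array, the second E5 array or the first or the third E14 array ended it (adjusted p of 0.0549 to 0.136), whereas the 5.02 between E14 and E5 (adjusted p = 0.000286) was kept under all 22. With the floor of 20 these were 2.72 and 3.67. Both calls came from 1 of 3 probe sets, and the dimmer ones gave 1.51 and 0.89 between E14 and E5 and were not called. SLC1A6, a glutamate transporter, rose by 2.93 and SLC38A2, which carries small neutral amino acids with sodium, by 1.20 between E14 and E5 (adjusted p = 0.00237 and 0.000678). SLC38A2 was called in 1 of its 2 probe sets.

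SLC1A3, the sodium-coupled glutamate transporter known from glia, fell furthest of the 5 genes lower at E14. It had 523, 486 and 392 at E5, 406, 233 and 358 at E7, 90.2, 77.5 and 83.4 at E10, and 35.7, 40.4 and 42.9 at E14. The arrays of E10 lay below those of E7, and those of E14 below those of E10. The log2 difference was -3.55 between E14 and E5 (SE 0.24, adjusted p = 4.86e-07) and -1.95 between E10 and E7 (adjusted p = 0.000754), and both were kept under all 22 alternatives. The step of -1.08 between E14 and E10 (adjusted p = 0.0266) was kept under 14 of 22 and was lost without any of the E10 arrays or the first or the third E14 array (adjusted p of 0.0522 to 0.11). Its second probe set gave -2.56 between E14 and E5.

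The other 4 genes that fell were SLC35F1, SLC35G2, SLC25A32 and SLC10A7. SLC35F1 had 82.6, 33.1 and 19.6 at E14, against 192, 148 and 161 at E5, and fell by 2.14 (SE 0.49, adjusted p = 0.00336), and its other 2 probe sets fell by 2.62 and 2.09. SLC35G2 had 71.8, 58.6 and 67.1 at E14, against 188, 163 and 210 at E5, and fell by 1.50 (SE 0.25, adjusted p = 0.000374). Both carry the name of the nucleotide sugar family. SLC25A32, the carrier of folate into mitochondria, had 214, 154 and 204 at E14, against 498, 539 and 478 at E5, and fell by 1.42 (SE 0.25, adjusted p = 0.000614). SLC10A7 fell by 1.05 in its brightest probe set and by 1.81 in the other (adjusted p = 0.0028 and 9.49e-05), and the first was under 2-fold without the second E14 array (-0.95) or the first E5 array (-0.93). None of these 4 was called in a single step. In 10 more genes, SLC35F2, SLC35F5, SLC35B4, SLC25A13, SLC25A15, SLC25A20, SLC25A36, SLC26A9, SLC30A1 and SLC30A6, a dimmer probe set fell between E14 and E5 while the brightest was not called. A dimmer probe set rose in this way in 7 genes, SLC5A1, SLC7A4, SLC12A4, SLC25A37, SLC37A2, SLC38A6 and SLC41A3. The share of all genes with such a call was not counted, so these numbers cannot be set against it.

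**Figure D3:**
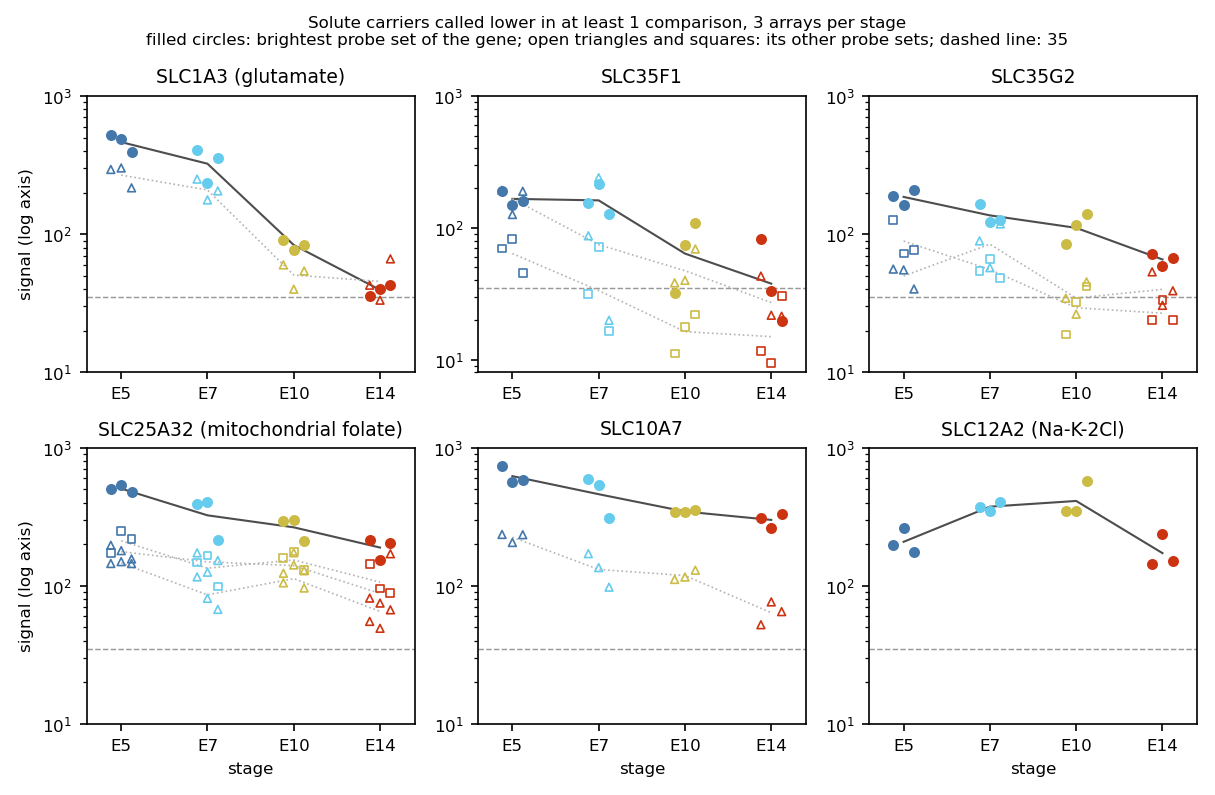
Signals of the 5 genes lower at E14 than at E5 and of SLC12A2, which was lower at E14 than at E10, on the 3 arrays of each stage on a log axis. Filled circles are the brightest probe set, open symbols the others, lines join geometric means, and the dashed line marks 35. SLC1A3 falls to between 35.7 and 42.9 at E14, below every array of the earlier stages.

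Of 19 carriers of bicarbonate, protons, sodium and chloride, 6 (31.6%) rose and 0 fell between E14 and E5 by brightest probe set, where 15.3% and 14% of all genes did. A dimmer probe set of SLC26A9 was called lower (-1.35), but not with the floor of 20. The 3 markers of acid-secreting epithelium went different ways. CA2 was called higher, with a mean of 4453 at E14 against 103 at E5, and FOXI1 lower, at 109 against 388. ATP6V0D2 was not called, at 201 against 246. The summed signal of the 3 was 4164 to 5320 at E14, against 542 to 896 at E5, and CA2 alone had a higher mean at E14. The part of this cell type in these results was not tested. SLC4A2, an exchanger of chloride for bicarbonate, had 55.1, 75.3 and 73.1 at E5, 53.3, 41.8 and 39.2 at E7, 251, 192 and 209 at E10, and 336, 319 and 311 at E14. The E10 arrays were all above the E7 arrays, with a difference of 2.28 (SE 0.24, adjusted p = 0.00026), and E14 was 2.26 above E5 (adjusted p = 8.91e-06). Its second, dim probe set gave -0.87 between E10 and E7 and was not called there or between E14 and E5. SLC9A7, an exchanger of sodium and potassium for protons in the Golgi, had 101, 94.2 and 77.3 at E5, 231, 112 and 267 at E10, and 746, 406 and 547 at E14. It rose by 1.53 between E14 and E10 (adjusted p = 0.0209) and by 2.60 between E14 and E5 (adjusted p = 3.95e-05), and its other 2 probe sets rose by 2.43 and 1.72. All 3 probe sets were called between E14 and E5, but only 1 of them between E14 and E10. The step at E14 was lost without the second E10 array or the first or the third E14 array (adjusted p of 0.0594 to 0.0951). SLC12A8, SLC26A11 and SLC12A9 rose by 2.93, 1.57 and 1.12, and the first by 1.75 with the floor of 20. SLC9A2, an epithelial sodium-proton exchanger, was called at 2.56 (adjusted p = 0.0353), but its E14 arrays, at 7.36, 55.1 and 71.1, overlapped those of E5, at 7.41, 12.1 and 1.55, and the call was lost with the floor of 20 (1.10, adjusted p = 0.0608). It was also lost without the second or the third E14 array, the first or the third E5 array or the first E10 array (adjusted p of 0.0501 to 0.151).

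SLC12A2, which brings sodium, potassium and chloride into cells together, turned at E14. It had 143, 238 and 151 at E14, against 350, 348 and 569 at E10, without overlap, and the difference was -1.25 (SE 0.26, adjusted p = 0.0181). The fall was lost without the third E10 array (adjusted p = 0.069), the first E14 array (adjusted p = 0.0563) or the third E14 array (adjusted p = 0.0628), and with the arrays of the 2 stages alone (adjusted p = 0.0508). Among 9 partner genes of ion transport and carrier control that passed, of 16 listed, 3 were higher and 1 lower at E14 than at E5 and 5 were not called. ATP1B1, a subunit of the sodium pump, rose by 1.73 and SGK1, a kinase that raises the surface level of sodium transporters, by 2.17 between E14 and E5, and ATP2B1, a plasma membrane calcium pump, fell by 1.80 (adjusted p = 0.000176, 6.13e-05 and 1.61e-05). Another sodium pump subunit, ATP1B3, differed by 0.33 and was not called.

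Between E10 and E7, 9 probe sets (2.92%) were higher and 2 (0.649%) lower, close to the 2.75% and 0.671% of all probe sets. By brightest probe set 8 genes (4.57%) were higher and 1 (0.571%) lower, where 2.88% and 0.666% of all genes were called. In 6 of the 7 called genes with more than 1 probe set, another probe set was not called. With the HINTW signal as a covariate, the calls of SLC36A1, SLC8B1 and SLC16A5 at this step were lost (adjusted p = 0.108, 0.0641 and 0.0506). SLC25A1, which exports citrate from mitochondria, had 947, 978 and 794 at E10, against 412, 479 and 287 at E7, and rose by 1.23 (SE 0.22, adjusted p = 0.00593), while its other probe set was not called. SLC22A23, an orphan member of the organic ion family, had 99, 84.5 and 150 at E10, against 22.7, 23.9 and 28.4 at E7, and rose by 2.12 (SE 0.33, adjusted p = 0.00291), and its other probe set gave 1.10 and was not called. At E14 it had 60.6, 63 and 55.7, which did not overlap either stage. SLC39A8, a zinc and manganese importer, had 573, 588 and 532 at E10, against 235, 317 and 264 at E7, and rose by 1.06 (SE 0.19, adjusted p = 0.00564), or by 0.96 without the first E7 array. Its other 2 probe sets were not called. SLC8B1, the sodium-calcium exchanger of mitochondria, had 47.7, 75.5 and 55.2 at E10, against 20.6, 15.1 and 23.6 at E7. At E14 it had 146, 118 and 111. The E10 step of 1.59 (adjusted p = 0.0316) was kept under 13 of 22 alternatives and lost without any of the E10 arrays or the first or second E7 array (adjusted p of 0.0533 to 0.123). The 2.73 between E14 and E5 (adjusted p = 9.54e-05) was kept under all of them. SLC31A1, a copper importer, was called at 1.26 between E10 and E7 (adjusted p = 0.0223) in 1 of 5 probe sets, and this was lost without the third E7 array (0.99, adjusted p = 0.0535) and without the first or the third E10 array (adjusted p = 0.0729 and 0.107).

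**Figure D4:**
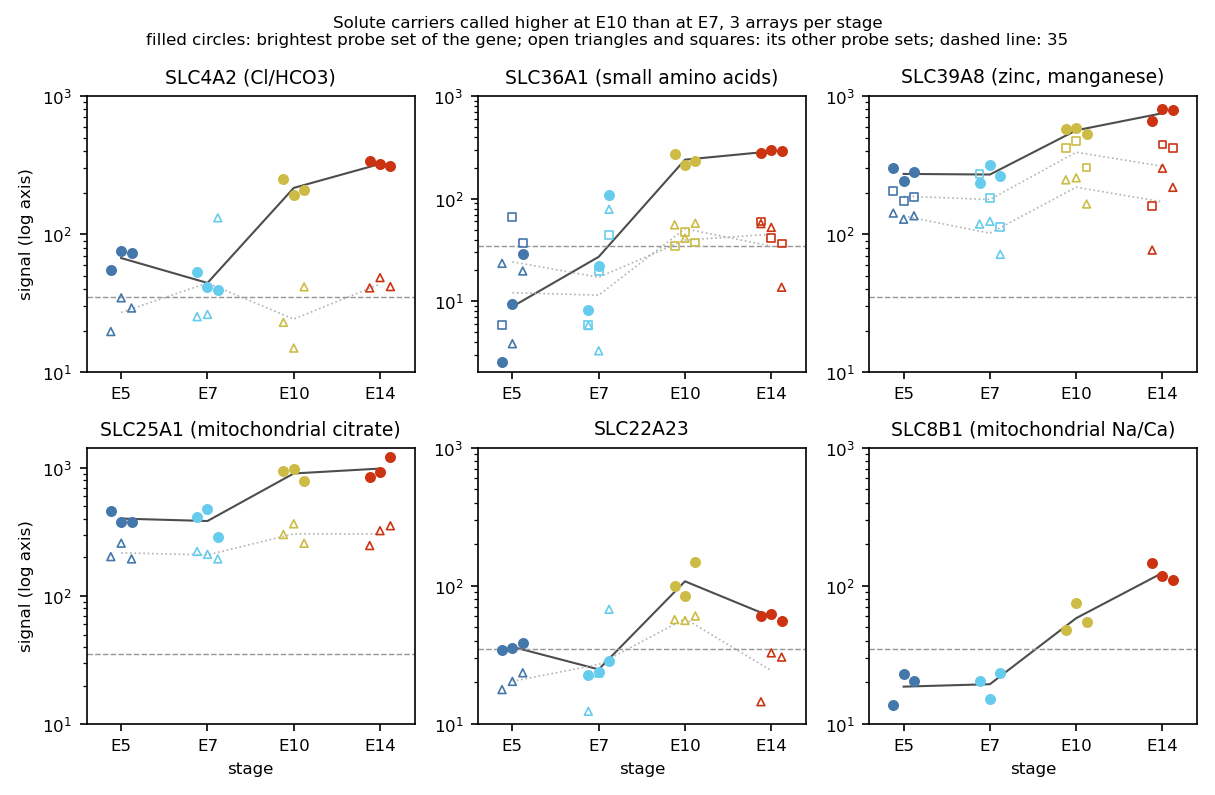
Signals of 6 carriers that were higher at E10 than at E7, on the 3 arrays of each stage on a log axis. Filled circles are the brightest probe set, open symbols the others, lines join geometric means, and the dashed line marks 35. In SLC4A2 the E10 arrays lie between 192 and 251 and the E7 arrays between 39.2 and 53.3.

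Between E7 and E5, 4 probe sets (1.3%) were higher and 0 lower, where 1.02% and 0.243% of all probe sets were called, or 3 genes (1.71%) and 0, where 1.29% and 0.255% of all genes were called. Between E14 and E10, 5 (1.62%) were higher and 4 (1.3%) lower, where 1.22% and 1.48% were called, or 5 and 3 genes (2.86% and 1.71%), where 1.6% and 1.62% were called. The 5 higher were SLC15A1, SLC16A3, SLC9A7, SLC17A9 and SLC52A3. SLC17A9, which loads ATP into vesicles, had 115, 117 and 101 at E14, against 45.4, 27.9 and 28.4 at E10, and rose by 1.75 (SE 0.35, adjusted p = 0.0144). SLC52A3, a riboflavin transporter, had 370, 297 and 354 at E14, against 182, 149 and 101 at E10, and rose by 1.28 (SE 0.29, adjusted p = 0.0258). Its arrays did not overlap between the stages. SLC17A9 lost its call at this step without the second E10 array (adjusted p = 0.0714). Its call between E14 and E5 was lost without any single array of those stages (adjusted p of 0.0504 to 0.0964). SLC52A3 lost its call between E14 and E10 without the second or the third E10 array or the first or the third E14 array (adjusted p of 0.0708 to 0.0939). Equal medians ended the call between E14 and E10 in SLC17A9, SLC52A3, SLC9A7 and SLC16A3 (adjusted p = 0.114, 0.151, 0.0944 and 0.0517). Quantile normalization also ended that of SLC17A9 (adjusted p = 0.0598). The falls were in SLC1A3, SLC12A2, SLC35B4, a nucleotide sugar carrier (-1.07, adjusted p = 0.0214, lost without the first or second E10 array or the second E14 array with an adjusted p of 0.0619 to 0.11), and a dimmer probe set of SLC35F2 (-2.29), whose fall was -0.43 with the floor of 20. SLC35B4 was called in 1 of its 4 probe sets between E14 and E10. Of the called genes with more than 1 probe set, 2 between E7 and E5 and 3 between E14 and E10, 0 were called in every probe set. Of the genes called between E14 and E5, 30 of 44 were called in no single step. Over all genes too, a single step held few calls. These were 0.255% to 2.88% in either direction, against 15.3% higher and 14% lower between E14 and E5. The share of all such genes called in no step was not counted, so the 30 of 44 cannot be set against it.

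Of 29 mitochondrial carriers, 3 (10.3%) rose and 1 (3.45%) fell between E14 and E5, where 15.3% and 14% of all genes did, and the group median was -0.04. SLC25A29, which carries basic amino acids, rose by 1.74, SLC25A1 by 1.30 and SLC25A43 by 1.07 (adjusted p = 0.000242, 0.000367 and 0.00592). The ADP/ATP exchangers that feed the cytosol with ATP did not pass 2-fold and went in different directions, at -0.86 for SLC25A4, -0.67 for SLC25A5 and 0.57 for SLC25A6 (adjusted p = 0.0234, 0.0214 and 0.046). SLC25A37, the iron importer of mitochondria, spread between 317 and 1341 over the 12 arrays. In the group for vitamins, choline and cofactors, 3 of 9 genes (33.3%) rose: SLC52A3 by 1.98, SLC46A1, the proton-coupled folate transporter, by 1.80 and SLC44A3 by 1.70. SLC19A1, the reduced folate carrier, had 345, 476 and 377 at E14, against 296, 415 and 386 at E5. Among carriers of zinc, copper, iron and manganese, 2 of 15 (13.3%) rose, SLC39A8 by 1.46 and SLC31A2 by 1.44 (adjusted p = 4.22e-05 and 0.0389), and the group median was -0.45. The rise of SLC39A8 was called in 1 of its 3 probe sets. The SLC31A2 call was kept under 9 of 21 alternatives and was lost without any single array of E10 or E5, or the first or second of E14 (adjusted p of 0.0519 to 0.116).

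Several genes held a narrow range. Among those with all 12 signals above 35, the spread between the highest and lowest stage mean was 0.11 for SLC15A4, 0.20 for SLC35A4, 0.23 for SLC25A20 in its brightest probe set and 0.25 for SLC30A10, a manganese exporter. SLC38A9, the amino acid sensor of lysosomes, had 0.27. In all, 126 of the 175 genes (72%) were called in no comparison, against 69.2% of all genes, and 118 (67.4%) passed the limit at all 4 stages, against 73.1% of all genes.

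**Figure D5:**
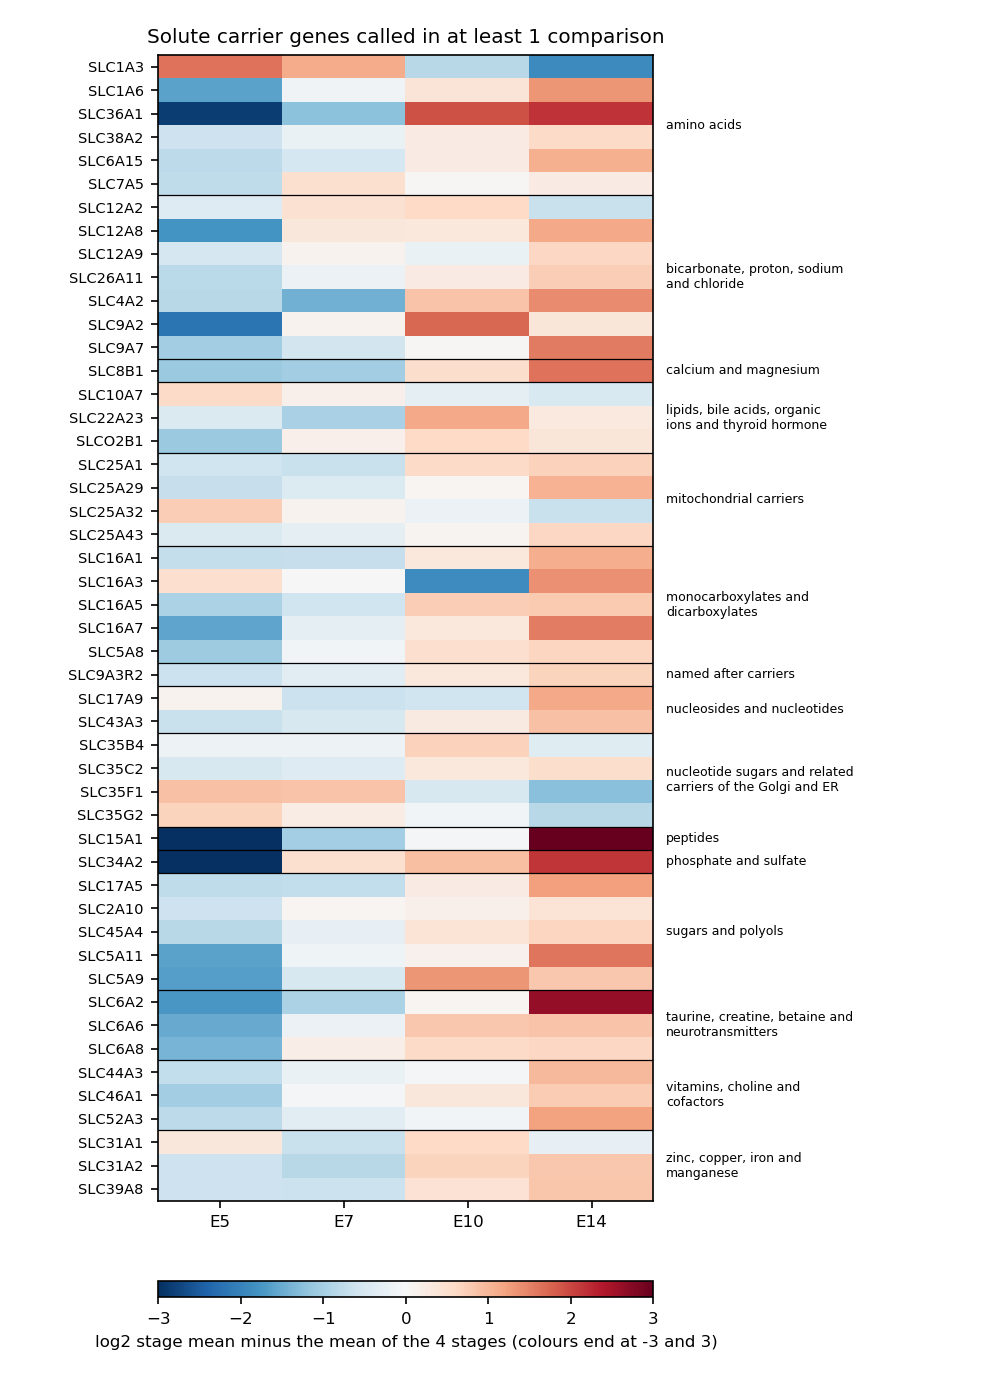
Log2 stage means of the 49 genes called in at least 1 comparison, each relative to its own mean over the 4 stages, ordered by substrate group. Red is above and blue below the mean of the gene, and colours end at -3 and 3. SLC1A3 runs from red at E5 to blue at E14, and SLC15A1 and SLC6A2 have their deepest red at E14.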

How the data were processed

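The deposited intensity values were signals that the authors computed with GCOS 1.2 at default settings from Affymetrix chicken arrays and scaled over each whole array, on a linear scale with no detection calls. Gene symbols came from the platform annotation, and 174 of 175 genes matched RefSeq by gene ID. Log2 signals were fitted in R with limma (trended eBayes) over all 12 arrays with the 4 stages as groups, for the 17726 probe sets with all 3 arrays of a stage above 35. Benjamini-Hochberg adjustment ran over all of them. The number of arrays limits the precision. The study's own test, SAM with a Wilcoxon statistic, was not used. No offset was added, and 71 member probe sets had a signal under 20. Probe sets with several symbols were left out, 5 of them with a solute carrier. A gene was read by its brightest probe set. The rule for naming genes took, per comparison, up to 8 of the largest rises and falls. It also took the widest and narrowest of each substrate group and a list of well-known carriers, of which 22 of 32 passed. It gave 62 genes, and some with no call in the brightest probe set, such as SLC4A4, SLC29A1, SLC44A1 and SLC25A30, are not described. SLC5A8, SLC15A2, SLC25A13 and other genes outside this rule were named after their values were seen. Members, lists and groups were chosen with earlier results of these data known. Once the files were open, 4 genes named after carriers (such as SLC4A1AP, SLC7A6OS and SLC9A3R2) were given a group of their own. They stayed in all counts and medians of the 175 genes, and SLC9A3R2 was among the 39 genes higher at E14 than at E5 (1.31). The fit was tested on simulated data. Alternatives covered the filter, an offset of 16, a floor of 20, quantile normalization, equal medians, eBayes without trend, the compared stages alone, HINTW as a covariate, a replicate block, other probe sets and leaving out each array.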

Additional observations from a re-analysis of the deposited data

How the results depend on the processing

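Of 49 calls of named genes in the brightest probe set, 26 were kept under every alternative fit, 23 were lost under at least 1, and 0 reversed. Other probe sets of a gene were not part of this count. In some of the genes with kept calls they were not called or pointed the other way. HINTW as a covariate ended the calls of SLC36A1, SLC8B1 and SLC16A5 for E10 over E7. It also ended those of SLC16A3 (adjusted p = 0.0549) and SLC35B4 (-0.975) for E14 over E10, and of SLC7A5 (0.96) for E14 over E5. Counts of called probe sets moved as follows. For E7 over E5, the 4 higher became 2 with quantile normalization, 0 with equal medians and 1 with the 6 arrays of the compared stages alone. For E14 over E10, the 5 higher became 9 with a floor of 20, 1 with equal medians and 2 without trend, and the 4 lower became 2 with the 6 arrays alone and 2 with HINTW as a covariate. For E14 over E5, the 59 higher became 37 with a limit of 100, which left 166 of the 308 probe sets, and the 22 lower became 35 with no fold threshold. Apart from the limit of 100 and the fold threshold, the cause was not tested. Equal medians put the median of all probe sets at -0.36 for E7 over E5, 0.33 for E10 over E7 and -0.29 for E14 over E10, where the split was 1 higher and 3 lower (25%, against 55.6%).

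Leaving out 1 array at a time gave 1 to 5 higher and 0 to 0 lower for E7 over E5, 5 to 13 higher and 2 to 3 lower for E10 over E7, 0 to 10 higher and 1 to 7 lower for E14 over E10, and 49 to 65 higher and 18 to 25 lower for E14 over E5. For E14 over E10 the 0 came without the second E10 array, and the 10 higher and 7 lower without the third E7 array. Other probe sets of a gene pointed the other way in SLC16A1 (-0.11 and -0.14) and SLC9A3R2 (-0.48) for E14 over E5, and in SLC4A2 (-0.87) for E10 over E7.

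Deviations from the stage means correlated at -0.14 to 0.07 between same-numbered arrays and at -0.15 to 0.15 between the others. This check cannot show whether arrays with the same number shared a batch. With the replicate number as a block, 5 higher and 0 lower were called for E7 over E5, 8 and 2 for E10 over E7, 5 and 4 for E14 over E10, and 60 and 22 for E14 over E5. SLC8B1 lost its E10 call (adjusted p = 0.0546). A floor of 20 cut called differences by over 1.5 times in SLC34A2, SLC6A2, SLC9A2 and SLC12A8 for E14 over E5, SLC34A2 for E7 over E5 and SLC16A3 for E14 over E10.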
